A study of Homo sapiens with 12 samples.

Results

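Interferon-stimulated and innate sensing genes were examined in a series on activation of the transcription factor p53, as 43 genes of the 25914 listed. They were chosen by name among the genes listed in both deposited tables. Each of the 43 names was found once, on the same gene identifier in both. RNA-seq had been performed on 12 libraries, 3 for each of 4 groups. HCT116 colon cancer cells and RPE-1 hTERT cells, an immortalized line from retinal pigment epithelium, both labelled wild-type, were given either 10 µM Nutlin-3a or the solvent DMSO for 24 h. Nutlin-3a occupies the pocket of MDM2 that binds p53 and thereby spares p53 from degradation. No interferon and no virus is named in the labels. The design implies a comparison of Nutlin-3a with DMSO within each line. It was not analysed here, because the columns used held no value for a single library. The measure available for every gene was the base mean, the authors' deposited mean of normalized read counts over pooled libraries.

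Both tables gave the same base mean for each gene (largest difference 0), so a base mean cannot be assigned to either line or to either treatment. It carries no spread, the reads per library behind it are unknown, and no difference between genes could be set against replicate error. A gene transcribed in 1 line alone cannot be told apart from a gene transcribed at a lower level in both. Fewer cells with a transcript and less RNA per cell cannot be told apart either. Every level below is therefore a description. Longer transcripts yield more reads, so a base mean tells how many normalized reads lay behind a gene, and the level of a gene beside others is given after division by the length of its annotated exons in kilobases (kb). With the longest transcript in place of all exons, 17 of the 43 levels per kb were over 1.5 times higher, by up to 3.58 times, and the order of genes of like level is therefore loose.

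Type I interferons are secreted when a cell detects foreign nucleic acid. Binding to their receptor activates the kinases JAK1 and TYK2, which phosphorylate STAT2. Together with IRF9, STAT2 is part of the factor ISGF3, which binds the interferon-stimulated response element (ISRE) in promoters. The induced proteins detect viral RNA, block its translation or degrade it, and hinder the entry and release of viruses. Interferon-γ acts on another sequence, the γ-activated site (GAS).

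Many promoters of these genes held the core of the ISRE. The core searched was GAAA followed by any 2 bases and GAAA again, on either strand. The search ran over RefSeq windows of 250 bases before to 50 bases after each gene start (GRCh38.p14). Windows were held for 35 of the 43 genes, found by symbol (DDX58 as RIGI), and not for GBP2, IFIT2, IFITM2, IRF7, MX2, OAS2, OASL and USP18. Of the 35 genes, 24 had the core in at least 1 window (68.6%), against 4.38% of all 27305 genes with a window and 3.57% of all 35116 windows. The following stretches of at most 30 bases are shown because they belong to the most abundant genes per kb, to gene families and, for contrast, to EPSTI1, one of the least abundant. BST2 is added for its overlapping cores. They are written 5′ to 3′ on the strand of the gene, with every base of a core in capitals. A stretch can begin or end inside a neighbouring core.
ISG15 (chr1:1013374-1013403, plus strand): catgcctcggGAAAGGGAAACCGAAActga
IFI6 (chr1:27672288-27672317, minus strand): ggagagagggGAAAATGAAActgcagagtg
IFITM3 (chr11:320876-320905, minus strand): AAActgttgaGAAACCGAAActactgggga
IFITM1 (chr11:313990-314019, plus strand): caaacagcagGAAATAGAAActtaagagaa
IFIT1 (chr10:89392497-89392526, plus strand): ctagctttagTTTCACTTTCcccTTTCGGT
IFIT5 (chr10:89414513-89414542, plus strand): ttctattaagTTTCGGTTTCtgaagcttac
PARP9 (chr3:122564322-122564351, minus strand): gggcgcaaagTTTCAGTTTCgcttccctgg
BST2 (chr19:17405741-17405770, minus strand): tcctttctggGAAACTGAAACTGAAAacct
EPSTI1 (chr13:42992272-42992301, minus strand): ctgattctgaGAAACCGAAActcagctgtt

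In ISG15 and BST2, a pair of cores overlapped, so that GAAA stood in a row at a fixed spacing. Overlapping cores were also found in HERC5 and IFIH1, which are not shown. In IFIT1, IFIT5 and PARP9 the core was read on the strand opposite to the gene, as TTTC repeats. A single core on chromosome 3, from 122564332 to 122564341, was counted for both PARP9 and DTX3L. Their RefSeq starts beside it, 122564300 for PARP9 and 122564338 for DTX3L, point away from each other. A match is a run of letters and was not tested as a binding site.

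Counted once for each window, there were 47 matches in 28 windows, 42 of them wholly before the start, 4 across it and 1 after it. The median centre was 90.5 bases before the start. Over all windows, 1359 matches had a median centre 102.5 bases before the start, and 84.5% lay wholly before it, against 89.4% here. Most bases searched lie before the start, and the positions are a description. A gene with overlapping windows can count the same letters more than once. Counted once per gene, 14 genes had 2 or more matches and 10 had 1, with at most 4, in IFIT3. IFI6 held its 3 cores starting 156, 115 and 93 bases before the start.

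**Figure D1:**
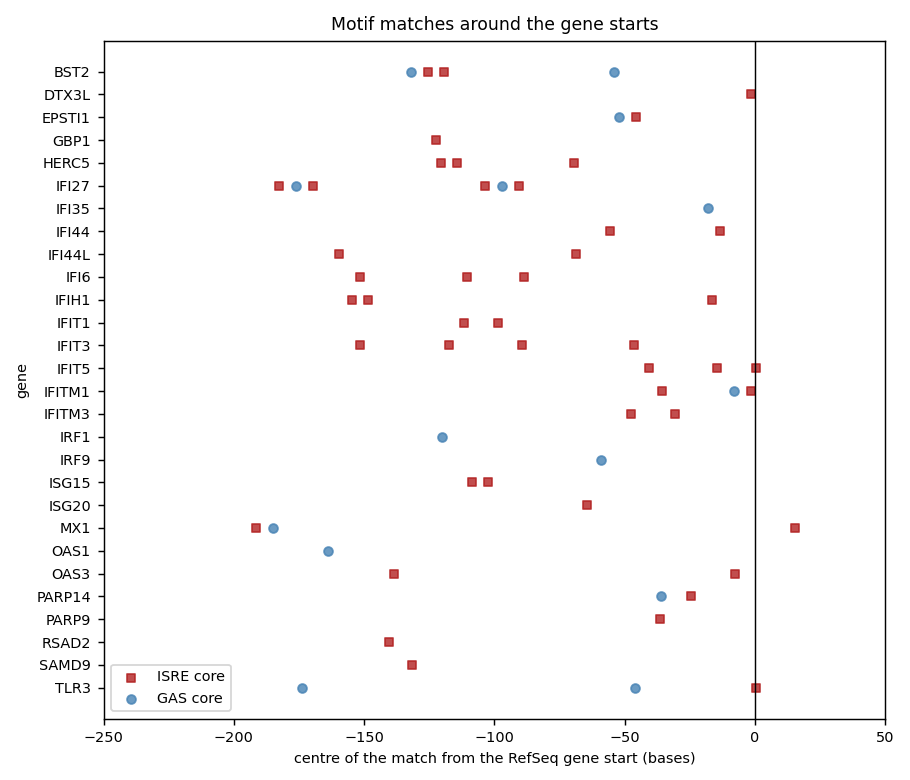
Positions of the ISRE core (red squares) and the GAS core (blue circles) in the RefSeq windows of the genes with a match, as the distance in bases of each match's centre from the gene start (vertical line at 0). The window reaches from 250 bases before the start to 50 after it, so most of its bases lie left of the line, and 42 of the 47 ISRE cores lie wholly there.

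By role the counts of genes with a window are small, and differences between roles were not tested. Over all roles together the share was 68.6%. All 3 IFIT genes with a window (IFIT1, IFIT3 and IFIT5), both IFITM genes (IFITM1 and IFITM3) and all of PARP9, PARP14 and DTX3L had the core. Among the sensors, IFIH1 and TLR3 had it, and DDX58 and IFI16 did not. None of the 3 transcription factors with a window had it (STAT2, IRF1 and IRF9). The core was in 8 of the 11 other induced genes and in 3 of 4 of the MX, GBP and SAMD9 families. It was in 2 of 3 of ISG15 and its enzymes and in 1 of 2 of the OAS family. With 2 more bases fixed after the core, CT, 15 of the 35 genes were left (42.9%), against 0.322% of all genes. Among these 15 were ISG15, MX1, HERC5 and IFI27.

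The GAS core, TTC and GAA separated by 3 bases of any kind, was present in 11 of the 35 genes (31.4%), against 9.38% of all genes with a window. The letters of both cores can overlap, and in 4 of the 11 genes (EPSTI1, IFI27, IFITM1 and MX1) each GAS core shared bases with an ISRE core. Without such matches 7 of the 35 genes were left (20.0%), against 9.32% of all genes. IRF1 and IRF9 had it without the ISRE core, as did OAS1 and IFI35. The 7 genes with both cores included TLR3, PARP14 and IFITM1, and 7 genes had neither, STAT2 and DDX58 among them. A full p53 response element, a pair of consensus half-sites with 0 to 13 bases between them, was found in 0 of the 35 genes and in 0.0366% of all genes. That says only that these letters are not in these windows.

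All 43 genes were listed with a base mean, which their choice from the listed genes had fixed in advance. Their levels differed widely between genes. The base mean ran from 3.70 in EPSTI1 to 3722 in IFITM3, with a median of 187 against 150 over all listed genes. Of the 43, 40 had a base mean of at least 10, and the 3 below it were EPSTI1, MX2 and XAF1. The table itself lists no gene under a base mean of 2.91, and 80.1% of the listed genes had at least 10. Per kb of exon, the median was 40.0, next to 51.3 over all listed genes and 120 over protein-coding genes. All 43 are protein-coding, and 34 of them lay below the protein-coding median. With the protein-coding genes divided per kb into 4 classes of equal size, 16 of the 43 fell in the lowest class, 18 in the second, 5 in the third and 4 in the highest.

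**Figure D2:**
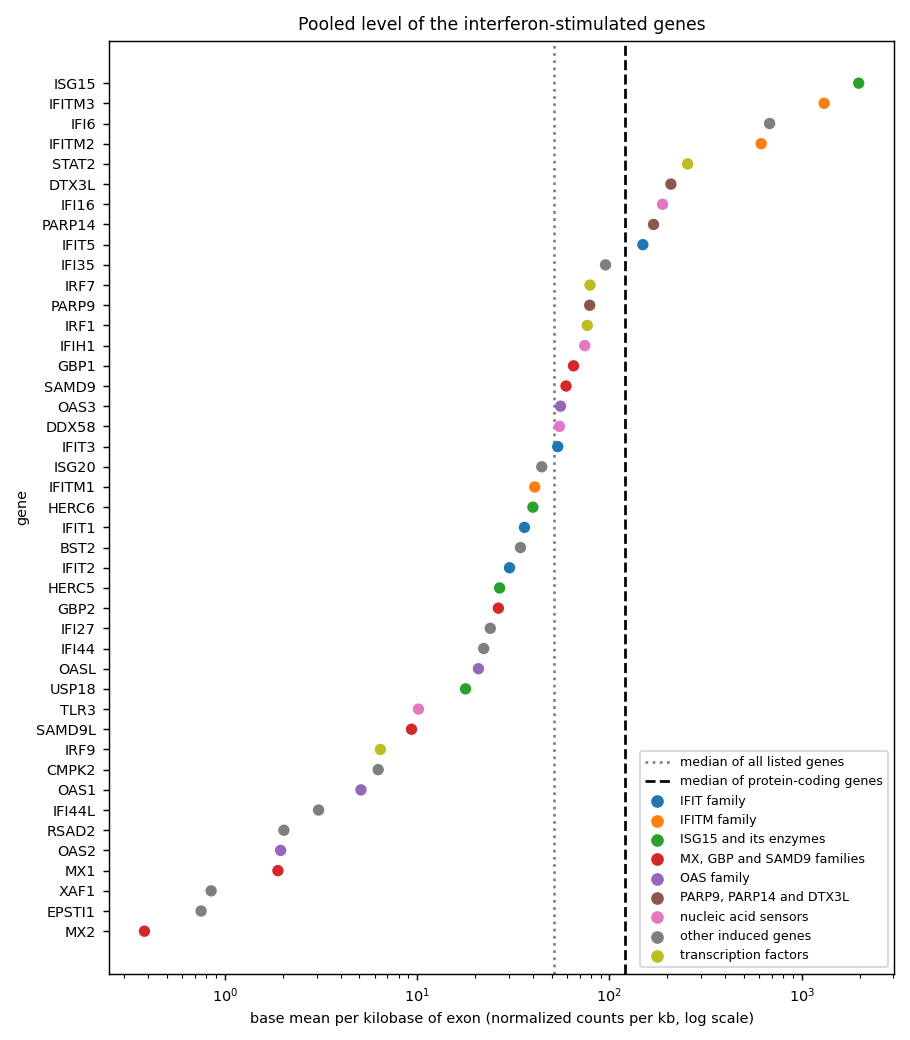
Base mean per kb of exon (normalized counts per kb, log axis) of the 43 genes in falling order, each point being 1 pooled value without error and coloured by role. ISG15 stands at 1980 and MX2 at 0.38, and only the 9 uppermost genes lie right of the protein-coding median (dashed, 120).

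The highest level per kb belonged to ISG15 (ENSG00000187608), a ubiquitin-like protein that is attached to other proteins. Its base mean of 1717 over 0.867 kb of exon gave 1980 per kb, above 97.4% of the listed genes. With the longest transcript as length, IFITM3 preceded it. The other genes placed with it here, HERC5, HERC6 and USP18, stood far below it. HERC5, the main ligase for ISG15, was at 26.8 per kb. HERC6, a relative of HERC5, was at 40.0, and USP18, the protease that removes ISG15, at 17.8. Of the 101-base stretches (the read length in the labels) in transcripts of USP18, 15.3% also occurred in a transcript of another gene, so that its level is less certain.

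Within the IFITM family, small membrane proteins that hinder virus entry, the 3 neighbouring genes on chromosome 11 differed by up to 32.0-fold per kb. IFITM3 (ENSG00000142089) had a base mean of 3722 and 1309 per kb. IFITM2 followed with 988.8 and 616 per kb, and IFITM1 with 68.1 and 40.9 per kb. The paper's methods state that only uniquely placed reads were kept. Of the 101-base stretches of IFITM1, 17.7% also occurred in other genes, the largest part in ENSG00000288681 and not in IFITM2 or IFITM3. For IFITM3 the share was 8.13% and for IFITM2 6.56%, in both with IFITM1 as the gene sharing most. Whether reads were lost in this way was not tested, so these levels are less certain than those of genes with unique sequence.

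The IFIT proteins, which bind viral RNA through repeats of a helical motif, are encoded side by side on chromosome 10 between 89283694 and 89421605. IFIT5, the last gene of the row, had 149 per kb from a base mean of 652.0. IFIT3 had 53.8 per kb, IFIT1 36.1 and IFIT2 30.2.

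Oligoadenylate synthetases respond to double-stranded RNA by making a small messenger molecule. OAS1, OAS3 and OAS2 lie in this order on the plus strand of chromosome 12 from 112905856 to 113011723, and OASL lies apart at 121017763 to 121039246. OAS3, in the middle, had a base mean of 1005 and 55.7 per kb. OAS1 had 66.4 and 5.10 per kb on one side of it, and OAS2 had 21.9 and 1.95 per kb on the other, 28.6-fold below OAS3 per kb. OASL, which lacks synthetase activity, had 20.8 per kb.

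Among the transcription factors, STAT2 and IRF9 of ISGF3 stood far apart. STAT2 (ENSG00000170581) had a base mean of 2377 and 255 per kb, the fifth highest of the 43. IRF9 (ENSG00000213928), the subunit that contacts DNA, had 41.6 and 6.43 per kb, 39.7-fold lower per kb. IRF7, which drives interferon-α genes, was at 79.2 per kb, and IRF1, a target and effector of interferon-γ, at 76.7 per kb. Their order turned with the longest transcript as length, with 183 for IRF1 and 101 for IRF7. For IRF9, 15.4% of its 101-base stretches were shared with another annotated gene, against 0% for STAT2. The level of IRF9 and its distance from STAT2 are therefore less certain.

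The sensors of nucleic acid covered a range of 10.1 to 189 per kb. IFI16, a DNA-binding protein of the nucleus, was highest at 189. IFIH1, which encodes the sensor MDA5 of long double-stranded RNA, had 74.5. DDX58, which encodes RIG-I, had 55.0, but 40.8% of its 101-base stretches also lie in other genes of GENCODE 44. The gene sharing most of them was ENSG00000288684. With the longest transcript as length, DDX58 stood at 115 and IFIH1 at 105. TLR3, the receptor of double-stranded RNA in endosomes, was lowest at 10.1, from a base mean of 76.1.

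The ADP-ribosylation genes on chromosome 3 were among the higher ones. DTX3L, a ubiquitin ligase, had 209 per kb and its neighbour PARP9, the partner of its protein, 79.0. PARP14 had 170 per kb. In GENCODE 44, PARP9 and DTX3L overlap by 240 bases on opposite strands, and the paper's methods state counting by strand.

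Large GTPases and the SAMD9 pair ranged from 0.38 to 65.0 per kb. MX1, which traps viral nucleocapsids, had a base mean of 33.9 and 1.89 per kb, and MX2 had 5.55 and 0.38 per kb, the lowest of all 43. With the longest transcript as length, MX1 stood at 5.87 and MX2 at 1.37 per kb, and EPSTI1 was the lowest with 0.80. The guanylate-binding proteins GBP1 and GBP2 had 65.0 and 26.4 per kb. SAMD9 had 59.5 per kb and SAMD9L, next to it on chromosome 7, 9.34.

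The other 11 induced genes spanned 0.75 to 681 per kb. IFI6, a small mitochondrial and reticulum protein, was at 681, the third highest of the 43, with 10.6% of its 101-base stretches shared with another gene. IFI35 had 95.4, ISG20, an exonuclease, 44.5, BST2 (tetherin), which holds budding virus at the membrane, 34.5, and IFI27 24.0. IFI44 was at 22.2 and its neighbour IFI44L at 3.07. RSAD2 (viperin) and CMPK2 run in opposite directions and overlap by 1079 bases at their 5′ ends in GENCODE 44. They were at 2.03 and 6.27. XAF1 had 0.85 and EPSTI1 0.75.

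Of the 43 genes, 24 lay within 100 kb of another one, in 14 neighbouring pairs. Per kb, the higher gene of a pair exceeded the lower by 1.49-fold to 32.0-fold, with a median of 4.54-fold. The largest ratio was that of IFITM3 and IFITM1.

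**Figure D3:**
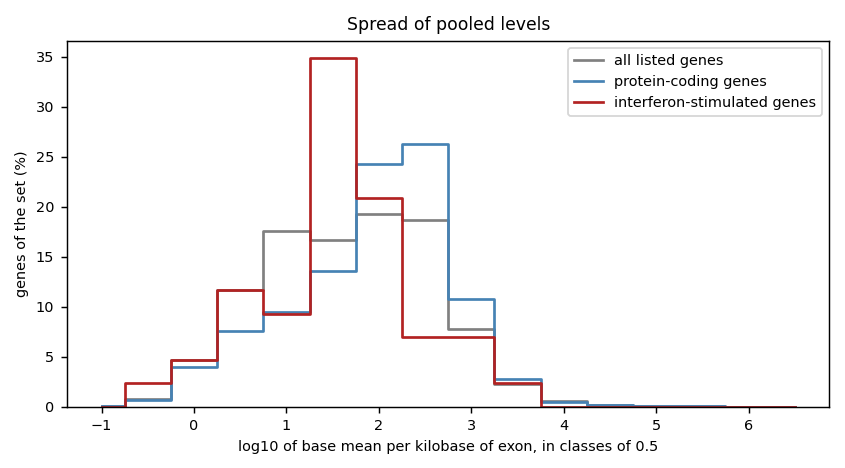
Share of genes (%) in classes of log10 base mean per kb, each 0.5 wide, for all listed genes (grey), protein-coding genes (blue) and the 43 interferon-stimulated genes (red). The median of the 43 is 40.0 per kb, left of the protein-coding median of 120.

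Genes with and without the ISRE core had overlapping levels. The 24 genes with the core had a median of 49.1 per kb (0.75 to 1980), and the 11 without it had 40.0 per kb (0.85 to 255). For the longer form the order was the other way, with 40.9 per kb in 15 genes and 49.7 in the 20 without it. For the GAS core, the medians were 24.0 per kb in 11 genes with it and 55.3 in 24 without it. These are descriptions across genes, with no test, and genes of a row share their chromosomal position.

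Upstream of the induced genes, transcripts for receiving and relaying interferon were listed and those for interferons were mostly not. Of 9 interferon genes sought, IFNE alone was listed, with a base mean of 15.5. All 6 receptor genes were listed, from IL10RB at 4.01 per kb to IFNGR2 at 309, with IFNAR1 at 78.4. The 5 kinases ranged from 56.2 per kb for JAK2 to 417 for JAK1. All 5 further factors were listed, from IRF8 at 8.23 per kb to STAT3 at 529, with IRF3 at 385. Adaptors and DNA sensors were found under 6 of 8 names, since STING1 and CGAS are each also known by an older name. MAVS, the adaptor shared by RIG-I and MDA5, had 832 per kb, and CGAS had 33.0. All 6 further effectors were listed, with ADAR, which edits double-stranded RNA, at 928 per kb and the kinase EIF2AK2 at 263.

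Leukocytes express many of these genes. Of 4 leukocyte markers, 2 were listed, PTPRC with 0.24 per kb and CD14 with 2.61, while CD3E and LYZ were not. Of 3 endothelial markers, PECAM1 and VWF were listed with 1.44 and 7.35 per kb. The epithelial markers EPCAM, CDH1, KRT8 and KRT18 had 1020 to 22018 per kb. Of the markers of retinal pigment epithelium, BEST1 was listed with 7.81 per kb, and RPE65 and RLBP1 were not. As a base mean cannot be assigned to either line, the label of neither line could be checked on its own.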

How the data were processed

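Per the labels, the authors used Trimmomatic 0.39, cutadapt 3.3, SAMtools 1.12, featureCounts 2.0.1 and DESeq2 1.32.0 with the build hg38. The paper's methods give other versions for some of these, and state that unique alignments were counted on exons by strand. The labels describe depletion of ribosomal RNA. The paper gives poly(A) selection for its RNA-seq libraries and removal of ribosomal RNA reads by alignment afterwards. Its methods do not name HCT116, so whether they hold for the HCT116 libraries is not known. Poly(A) selection would change the levels of transcripts without a poly(A) tail. The deposited signal is the base mean that the authors computed with DESeq2, the mean of counts divided by size factors. Which libraries the authors averaged is not given in the sources used here. The other 5 numeric columns of each table hold the authors' own comparison (fold change, standard error, test statistic, p-value and adjusted p-value) and were not used.

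Groups came from the sample titles. Gene lengths, as the union of exons, came from GENCODE 44 on GRCh38, the same assembly as hg38 with a later annotation, and covered 25836 listed genes. RefSeq windows were searched on both strands, overlapping matches included, and all 46 windows of the genes studied equalled the genome. Transcripts were compared by stretches of 101 bases on the same strand. The motif search and the exon union were tested on simulated data and recovered 200 of 200 planted motifs and 200 of 200 lengths. The planted motifs were exact ISRE cores in random sequence of C and G only. The other motif forms were not tested in this way. Python 3.11.15, pandas 2.3.3, numpy 2.4.6 and matplotlib 3.10.9 were used. Alternatives covered the set of genes beside the members, the minimum base mean, the length, the motif and the window. The rule for values to print named the factors, the sensors, the families and the 5 highest and 5 lowest genes per kb, and the remaining genes were printed as well. The genes and lists were chosen with earlier results of these data known. A few genes of the lists are not reported here.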

Additional observations from a re-analysis of the deposited data

How the results depend on the processing

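The median base mean of 187 stood above the 150 of all listed genes, but below the 651 of protein-coding genes. With a minimum base mean of 10 the medians were 199 and 370. Per kb, the median of 40.0 was set beside 120 for protein-coding genes, a choice made after seeing the data, and it was 56.7 with the longest transcript as length (64.6 over all listed genes) and 42.7 with the minimum of 10 (96.8). A limit of 100 on the base mean left 26 of the 43 genes and 54.0% of all listed genes, and a limit of 50 left 32 genes and 60.9%. A limit of 1 lies below every listed value and so left all 43. The ISRE core was found in 15 genes when CT had to follow (0.322% of all genes). It was found in 22 when only bases before the start were searched (3.71% of all genes). When 1 base could differ it was found in 31, a form that 37.7% of all genes and 33.0% of all windows also held. With the longest transcript, the 5 highest genes were the same 5, though IFITM3 then preceded ISG15, and 4 of the 5 lowest were shared, EPSTI1 in place of MX2 being the lowest. No paired analysis was possible because the columns used give pooled values. Leaving out a library was not possible either, and the planned tests of Nutlin-3a with their alternatives were not run. Depth and the error of each level are unknown.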
